A study of Mus musculus with 5 samples.

Results

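The genes described here are the Wnt ligands, their Frizzled receptors, the secreted antagonists of the Sfrp and Dkk families, the co-receptors Lrp5 and Lrp6, the TCF/LEF factors Lef1, Tcf7, and Tcf7l1, and Axin2. They were chosen by name: every symbol of the form Wnt, Fzd, Sfrp, or Dkk followed by its number and letter that both deposited tables list, plus Lrp5, Lrp6, Axin2, Lef1, Tcf7, and Tcf7l1. This gave 43 of the 24421 listed genes, namely 19 Wnt ligands, 10 Frizzled receptors, 2 co-receptors, 4 Sfrp and 4 Dkk antagonists, and 4 genes in the group of Axin2 with the TCF/LEF factors. RNA-seq was done on 5 mouse libraries, 1 per condition, in a study of the glycine cleavage system and its key enzyme Gldc in pluripotent stem cells (PSCs). The MEFs are fibroblasts from CF-1 mouse embryos, grown in medium with foetal bovine serum. The mESCs are untreated V6.5 cells, an embryonic stem cell line, and the iPSCs are a line of reprogrammed cells from a cell repository, whose cell of origin is not given in the sources used here. The NTC and shGldc libraries are V6.5 cells stably expressing a non-targeting control shRNA or an shRNA against Gldc. Per the labels, the ES and iPS cells were grown without feeder cells, on gelatin with serum replacement and leukaemia inhibitory factor (LIF), and the methods also describe culture on feeders. The knockdown column is named sh3 and was taken as shGldc because that table has no other sample with an shRNA against a gene. The sources used here do not say which hairpin that is, or whether a condition was more than 1 culture or clone.

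Wnt proteins are secreted lipid-modified ligands that bind a Frizzled receptor together with Lrp5 or Lrp6. In the canonical branch this stops the destruction complex built on Axin from degrading β-catenin, which then enters the nucleus and turns on targets with TCF/LEF factors, while Sfrp proteins bind the ligands and Dkk proteins block the co-receptors. In mouse embryonic stem cells the canonical branch is known to promote self-renewal, and in the embryo it is needed for the primitive streak and posterior mesoderm.

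Expression is given as FPKM, the number of fragments for each kilobase of a transcript and each 1000000 mapped fragments, so levels of different genes can be compared per length. Because each condition was 1 library, none of the differences has a replicate check, and no p-value, SD, or test is given. A ratio is the difference of log2(FPKM + 0.1) between 2 libraries, a scale that makes the change of weakly expressed genes look smaller than it is. It was computed where either library of the pair reached an FPKM of 1. A gene was counted as higher or lower when this ratio was at least 2-fold, and a fold printed for a gene is the plain ratio of its FPKM values. The MEF, mESC, and iPSC values come from 1 table and the NTC and shGldc values from another made separately, so a ratio of NTC or shGldc to mESC also includes any difference between the tables. These are bulk libraries, in which fewer cells of a type and less RNA per cell cannot be told apart.

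Gldc itself stood at an FPKM of 74.7 in NTC and 2.07 in shGldc, so 2.77% of the control level was left. All 10 pluripotency markers examined reached an FPKM of 1 in every PSC library. None of them differed by 2-fold between shGldc and NTC, where 8.97% of all genes were higher and 7.68% lower. All but Dppa5a were lower in shGldc, however, and the median log2 ratio of the 10 was -0.42. Of the 6 fibroblast markers that passed in that comparison, Pdgfra (0.143 in NTC and 1.36 in shGldc) was higher and passed only through shGldc. Thy1 (6.95 and 1.11) and Col1a1 (1.24 and 0.125) were lower, and Col1a1 passed only through NTC. The 12 fibroblast markers summed to 7351 in MEFs, 56.7 in mESCs, 26.4 in iPSCs, 14.4 in NTC, and 10.4 in shGldc. In mESCs they stood at a median of 1.63% of the MEF level, with Col1a1 at 20.5 and Dcn at 1.93, whereas Dcn, Lum, Postn, Prrx1, and Col3a1 were listed at 0 in both NTC and shGldc. In MEFs, 8 macrophage markers summed to 318. The steps between low FPKM values corresponded to 22.1 to 29.1 times 1000000 fragments per library, but a step 2 times (NTC) or 3 times (shGldc) as large fitted as well, so the depth is uncertain by that factor.

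Of the 43 genes, 36 reached an FPKM of 1 in at least 1 library. The other 7 were Wnt1, Wnt7a, Wnt8b, Wnt9b, Wnt10a, Wnt10b, and Fzd3, of which the highest value was 0.910 for Wnt10a in iPSCs. The members differed widely in how far they varied. The co-receptors stayed within a narrow range across all 5 libraries, whereas several ligands and Dkk antagonists went from values listed at 0 to some of the highest levels of their families.

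**Figure D1:**
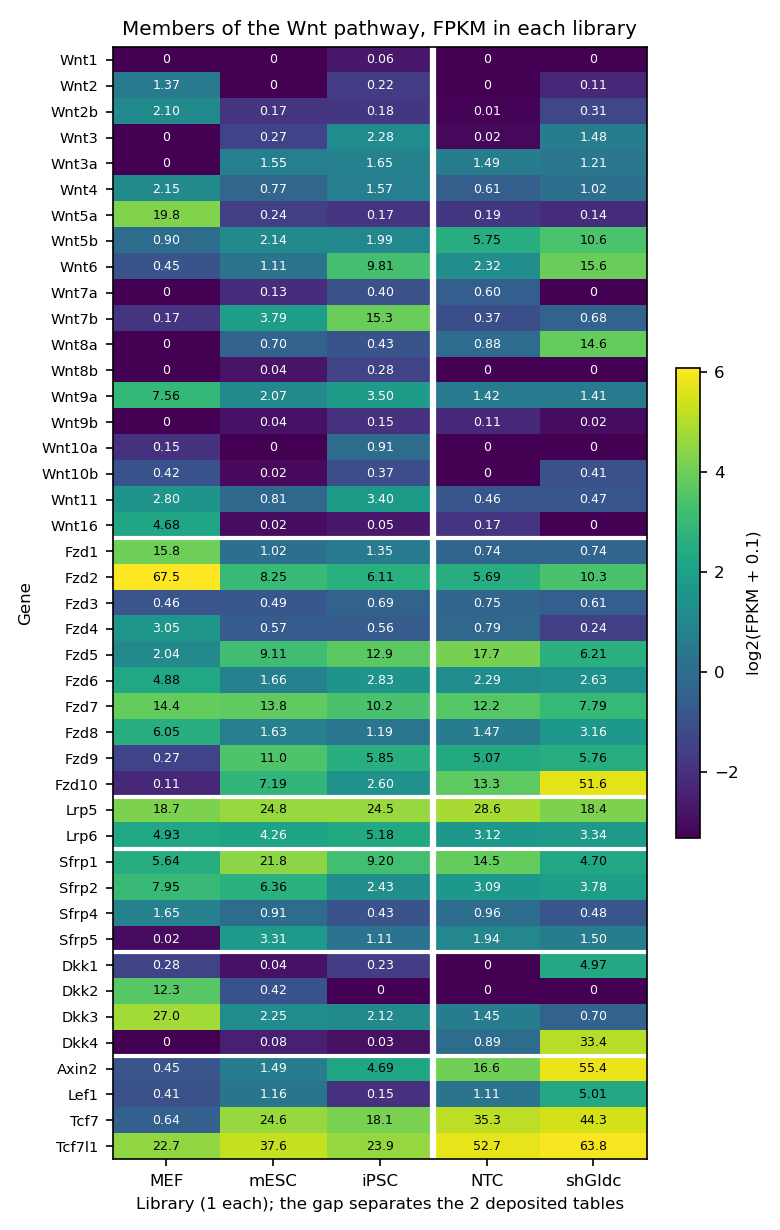
FPKM of the 43 genes (rows, grouped by family) in each of the 5 libraries (columns), with the value printed in each cell and the colour showing log2(FPKM + 0.1). Wnt5a, Fzd2, Dkk2, and Dkk3 are high in MEFs, Wnt7b and Wnt6 in iPSCs, and Axin2, Fzd10, Dkk4, Wnt6, and Wnt8a in shGldc.

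The ligands made up a different set in each library. Added together, they came to an FPKM of 42.5 in MEFs, 13.9 in mESCs, 42.8 in iPSCs, 14.4 in NTC, and 47.9 in shGldc. MEFs and iPSCs thus had nearly equal sums, but the leading ligand was Wnt5a in MEFs, with 46.5% of the sum, and Wnt7b in iPSCs, with 35.8%. Wnt7b also led in mESCs with 27.3%, Wnt5b led in NTC with 39.9%, and Wnt6 led in shGldc with 32.5%.

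**Figure D2:**
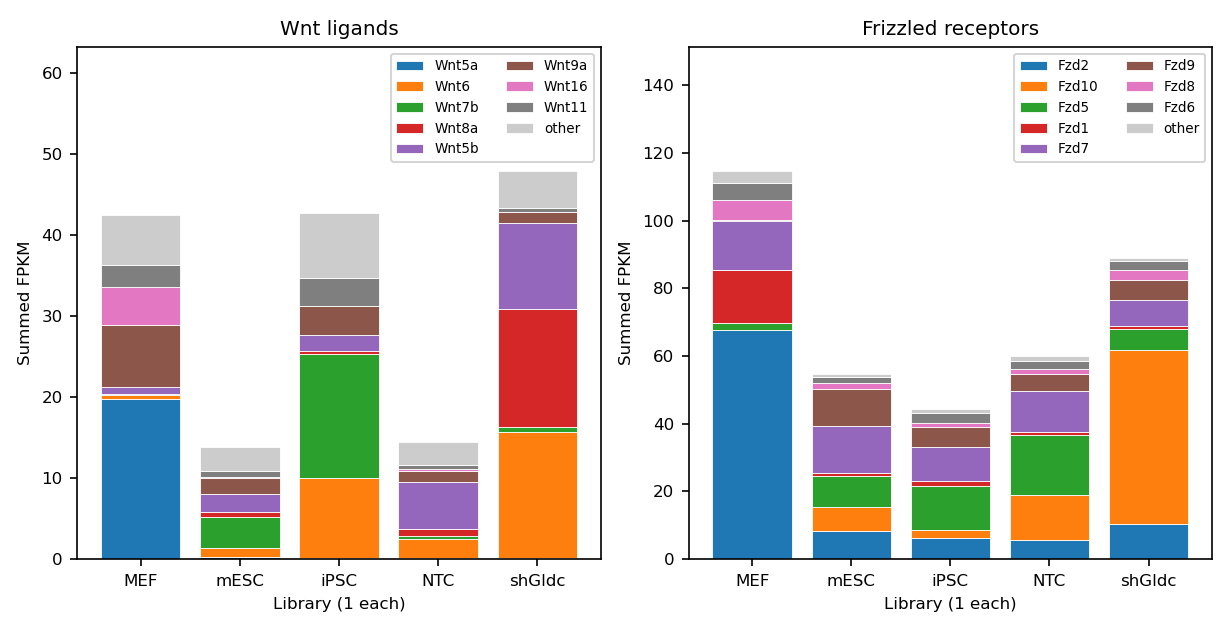
Summed FPKM of the Wnt ligands (left) and the Frizzled receptors (right) in each library, with each bar split by gene and the smaller contributors pooled as other. The ligand sum was 42.5 in MEFs and 47.9 in shGldc with no gene in common among the 3 highest, and Fzd10 alone made up 58.0% of the receptor sum in shGldc.

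Several ligands belonged to the MEF library. Wnt5a, the best known ligand of the noncanonical branch, was 19.8 in MEFs, 0.241 in mESCs, 0.175 in iPSCs, 0.189 in NTC, and 0.135 in shGldc. Wnt16, a ligand studied in bone, was 4.68 in MEFs and 0.0244, 0.0541, and 0.166 in mESCs, iPSCs, and NTC, and it was listed at 0 in shGldc. Wnt9a was 7.56 in MEFs, 2.07 in mESCs, 3.50 in iPSCs, 1.42 in NTC, and 1.41 in shGldc. Wnt5a in mESCs was thus 82.2-fold below its level in MEFs, whereas Wnt9a was only 3.64-fold below. Wnt2 was 1.37 in MEFs, was listed at 0 in mESCs and NTC, and was 0.222 in iPSCs and 0.109 in shGldc. Wnt2b was 2.10 in MEFs, 0.167 in mESCs, 0.182 in iPSCs, 0.00644 in NTC, and 0.312 in shGldc. Both were thus highest in MEFs, where Wnt2 was 6.17-fold and Wnt2b 11.5-fold the iPSC level, although the next highest Wnt2b level was that of shGldc. The Wnt5a level in mESCs was 1.22% of that in MEFs, beside the 1.63% of the fibroblast markers, and was 0 with that share of the MEF level subtracted. The median share of these markers was 0.0845% in iPSCs, 0.0219% in NTC, and 0.0157% in shGldc, where Wnt5a was 0.175, 0.189, and 0.135. The part of fibroblasts in the Wnt5a level was not tested. The Wnt16 level in mESCs was below that of 3 fragments.

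Other ligands were found in PSCs. Wnt7b was 0.170 in MEFs, 3.79 in mESCs, 15.3 in iPSCs, 0.375 in NTC, and 0.683 in shGldc. It was therefore 4.05-fold higher in iPSCs than in mESCs and 10.1-fold lower in NTC than in mESCs, although NTC and mESCs are the same line, with the separately made tables between them. Wnt3a, a canonical ligand, was listed at 0 in MEFs and was 1.55 in mESCs, 1.65 in iPSCs, 1.49 in NTC, and 1.21 in shGldc, so the PSC libraries lay within a narrow range. Wnt5b was 0.904 in MEFs, 2.14 in mESCs, 1.99 in iPSCs, 5.75 in NTC, and 10.6 in shGldc. Its ratio of shGldc to NTC, 1.84-fold, was below the 2-fold limit. Wnt4 ranged from 0.613 in NTC to 2.15 in MEFs, with 0.766 in mESCs, 1.57 in iPSCs, and 1.02 in shGldc. Wnt11, a noncanonical ligand, was 2.80 in MEFs, 0.811 in mESCs, 3.40 in iPSCs, 0.465 in NTC, and 0.466 in shGldc. Both Wnt4 and Wnt11 thus stood higher in MEFs and iPSCs than in any V6.5 library, with MEFs and iPSCs less than 2-fold apart.

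Wnt6, Wnt8a, and Wnt3 were the ligands that differed by at least 2-fold between shGldc and NTC, all of them higher in shGldc. Wnt6 was 0.450 in MEFs, 1.11 in mESCs, 9.81 in iPSCs, 2.32 in NTC, and 15.6 in shGldc. This was 6.71-fold higher in shGldc than in NTC, and the iPSC level was 8.80-fold above mESCs. Wnt8a, a canonical ligand of the posterior embryo, was listed at 0 in MEFs and was 0.696 in mESCs, 0.426 in iPSCs, 0.883 in NTC, and 14.6 in shGldc. It thus stayed below 1 in every library but shGldc, where it was 16.5-fold above NTC. Wnt3, a canonical ligand required for the primitive streak, was listed at 0 in MEFs and was 0.271 in mESCs, 2.28 in iPSCs, 0.0165 in NTC, and 1.48 in shGldc. The NTC value was below the level that 3 fragments would give at the estimated depth, 0.0336, so no fold is given for it.

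The Frizzled receptors summed to 115 in MEFs, 54.7 in mESCs, 44.3 in iPSCs, 60.0 in NTC, and 89.0 in shGldc. Fzd2 provided 58.9% of the sum in MEFs, and Fzd10 provided 58.0% in shGldc. No receptor held over 30% in the other 3 libraries, where Fzd7 (25.2% in mESCs) or Fzd5 (29.1% in iPSCs and 29.6% in NTC) led.

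Fzd2 was 67.5 in MEFs, 8.25 in mESCs, 6.11 in iPSCs, 5.69 in NTC, and 10.3 in shGldc. Fzd1 was 15.8 in MEFs, 1.02 in mESCs, 1.35 in iPSCs, 0.744 in NTC, and 0.738 in shGldc. Fzd8 was 6.05 in MEFs, 1.63 in mESCs, 1.19 in iPSCs, 1.47 in NTC, and 3.16 in shGldc, and its ratio of shGldc to NTC, 2.15-fold, was just past the limit. These 3 receptors and Fzd4 were at least 2-fold lower than in MEFs in each of mESCs and iPSCs. Fzd4, which also serves Norrin, was 3.05 in MEFs, 0.571 in mESCs, 0.564 in iPSCs, 0.787 in NTC, and 0.241 in shGldc. Fzd6 was 4.88 in MEFs, 1.66 in mESCs, 2.83 in iPSCs, 2.29 in NTC, and 2.63 in shGldc. Fzd7 was the most even of the well expressed receptors, at 14.4 in MEFs, 13.8 in mESCs, 10.2 in iPSCs, 12.2 in NTC, and 7.79 in shGldc.

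A set of 3 receptors showed the opposite pattern and was at least 2-fold above its MEF level in each of mESCs and iPSCs. Fzd5 was 2.04 in MEFs, 9.11 in mESCs, 12.9 in iPSCs, 17.7 in NTC, and 6.21 in shGldc. Fzd9 was 0.273 in MEFs, 11.0 in mESCs, 5.85 in iPSCs, 5.07 in NTC, and 5.76 in shGldc. Fzd10 was 0.114 in MEFs, 7.19 in mESCs, 2.60 in iPSCs, 13.3 in NTC, and 51.6 in shGldc. Fzd10 and Fzd5 moved in opposite directions between NTC and shGldc, Fzd10 being 3.88-fold higher and Fzd5 2.86-fold lower in shGldc. The order of these receptors changed accordingly, with Fzd5 above Fzd10 in NTC and Fzd10 above Fzd5 in shGldc.

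As a family, the co-receptors varied least. Lrp5 was 18.7 in MEFs, 24.8 in mESCs, 24.5 in iPSCs, 28.6 in NTC, and 18.4 in shGldc. Lrp6 was 4.93 in MEFs, 4.26 in mESCs, 5.18 in iPSCs, 3.12 in NTC, and 3.34 in shGldc. Neither differed by 2-fold in any of the 6 comparisons. Lrp5 was above Lrp6 in every library, with 79.1% of their summed FPKM in MEFs and 90.1% in NTC.

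Sfrp1, which binds Wnt ligands outside the cell, was 5.64 in MEFs, 21.8 in mESCs, 9.20 in iPSCs, 14.5 in NTC, and 4.70 in shGldc. It was 3.09-fold lower in shGldc than in NTC, 4.64-fold lower in shGldc than in mESCs, and 2.37-fold lower in iPSCs than in mESCs. The untreated and NTC V6.5 cells thus held the 2 highest Sfrp1 levels. Sfrp2 was 7.95 in MEFs, 6.36 in mESCs, 2.43 in iPSCs, 3.09 in NTC, and 3.78 in shGldc. Sfrp5 was 0.0214 in MEFs, 3.31 in mESCs, 1.11 in iPSCs, 1.94 in NTC, and 1.50 in shGldc. Its MEF level was below that of 3 fragments, 0.0642, so the PSC libraries were the ones with detectable Sfrp5. Sfrp4 was 1.65 in MEFs, 0.912 in mESCs, 0.433 in iPSCs, 0.964 in NTC, and 0.475 in shGldc.

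The Dkk sum was as high in shGldc as in MEFs, but with other members. It was 39.5 in MEFs, 2.78 in mESCs, 2.39 in iPSCs, 2.35 in NTC, and 39.1 in shGldc. In MEFs 68.3% of it was Dkk3, and in shGldc 85.5% was Dkk4. Dkk3, a divergent member that is not a typical Wnt antagonist, was 27.0 in MEFs, 2.25 in mESCs, 2.12 in iPSCs, 1.45 in NTC, and 0.699 in shGldc. Dkk2 was 12.3 in MEFs, with 0.418 in mESCs, and the other 3 libraries listed it at 0. The Dkk2 level in mESCs was 3.41% of that in MEFs, again beside the 1.63% of the fibroblast markers, whose part in it was not tested.

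Dkk4 and Dkk1 are both blockers of Lrp5 and Lrp6 and known targets of the pathway they inhibit. They were the members with the largest ratio of shGldc to NTC on the log2(FPKM + 0.1) scale, and the order depends on that 0.1. Dkk4 was listed at 0 in MEFs and was 0.0772 in mESCs, 0.0343 in iPSCs, 0.892 in NTC, and 33.4 in shGldc. Dkk1 was listed at 0 in NTC and was 4.97 in shGldc, beside 0.280 in MEFs, 0.0360 in mESCs, and 0.230 in iPSCs. Both were thus below 1 in every library but shGldc. The Dkk4 level was 37.5-fold that of NTC, and the log2 ratios of Dkk1 (5.66) and Dkk4 (5.08) ranked 12 and 26 from the top among 11969 genes. Against NTC, where Dkk1 was listed at 0, its log2 ratio depends on the 0.1 added to both values, and no fold is given.

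Axin2, a scaffold of the destruction complex and a widely used readout of canonical signalling, was 0.452 in MEFs, 1.49 in mESCs, 4.69 in iPSCs, 16.6 in NTC, and 55.4 in shGldc. The 5 libraries were therefore all well apart, with shGldc 3.34-fold above NTC, and NTC 11.2-fold above untreated mESCs of the same line. Lef1, a TCF/LEF factor that mostly acts as an activator and is itself a common target, was 0.408 in MEFs, 1.16 in mESCs, 0.151 in iPSCs, 1.11 in NTC, and 5.01 in shGldc. It was 4.50-fold higher in shGldc than in NTC and 7.69-fold lower in iPSCs than in mESCs. Tcf7 (TCF1) was 0.640 in MEFs, 24.6 in mESCs, 18.1 in iPSCs, 35.3 in NTC, and 44.3 in shGldc. Tcf7l1 (TCF3), the main repressor of the family in embryonic stem cells, was 22.7 in MEFs, 37.6 in mESCs, 23.9 in iPSCs, 52.7 in NTC, and 63.8 in shGldc. Neither of these factors differed by 2-fold between shGldc and NTC, and Tcf7 was far lower in MEFs than in any PSC library, whereas the Tcf7l1 level of MEFs was close to that of iPSCs.

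In shGldc over NTC, 26 of the 43 genes passed the filter, of which 9 were higher (Wnt3, Wnt6, Wnt8a, Fzd8, Fzd10, Dkk1, Dkk4, Axin2, and Lef1) and 2 lower (Fzd5 and Sfrp1). Among all 11969 genes that passed, 8.97% were higher and 7.68% lower. The members' 34.6% higher was above the share of all genes, and their 7.7% lower was near it. Of the 9, however, 4 (Wnt3, Wnt8a, Dkk1, and Dkk4) passed the filter only through the shGldc library, in which they were high. The median log2 ratio was 0.30 over the members and 0.04 over all genes, and that of the members was 0.09 with no filter and 0.84 with an FPKM limit of 5. Dkk3, at -0.96 on the log2(FPKM + 0.1) scale, lay just inside the 2-fold limit, although its plain FPKM was 2.08-fold lower in shGldc.

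**Figure D3:**
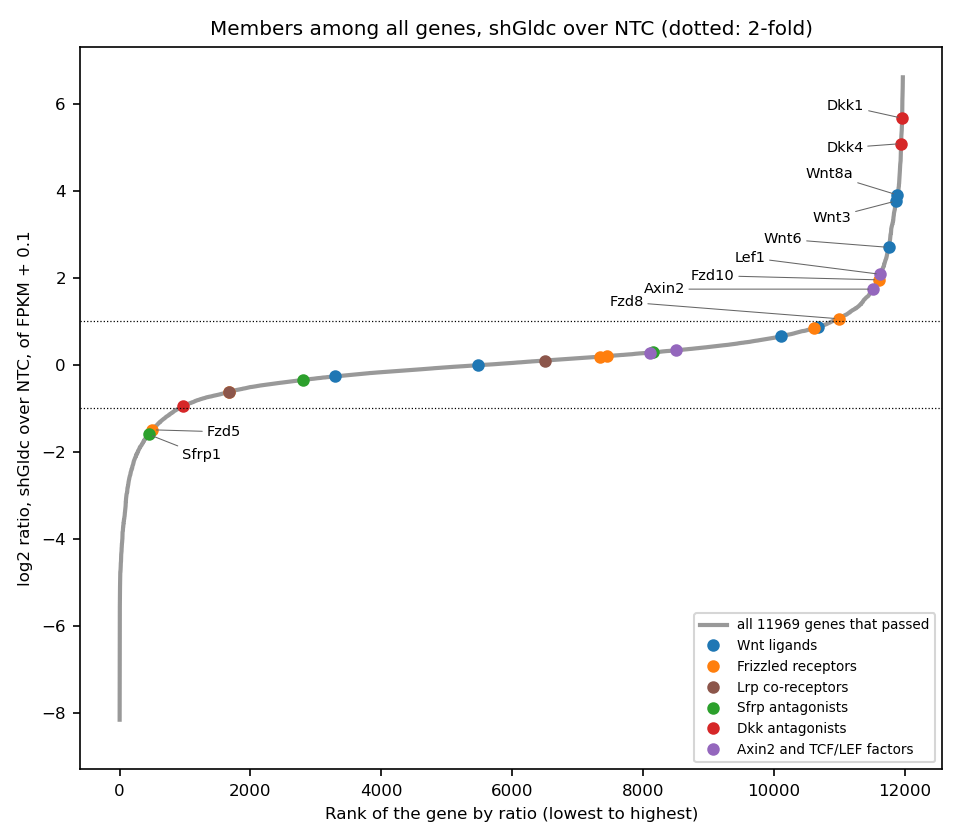
Log2 ratio of shGldc over NTC (y axis) against the rank of the gene by that ratio (x axis) for all 11969 genes that passed the filter (grey line), with the 26 members as points coloured by family and the 2-fold limits dotted. Of the 11 members past these limits, 9 lie above and 2 below, Dkk1 and Dkk4 near the upper end.

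Genes for the secretion of Wnt ligands and for adding or removing their lipid were also examined. Wls, the carrier that takes lipid-modified Wnt proteins to the surface, was 127 in MEFs, 3.80 in mESCs, 5.69 in iPSCs, 1.53 in NTC, and 15.4 in shGldc, and its shGldc level was 10.0-fold that of NTC. Porcn, the enzyme that adds the lipid, was 1.80 in MEFs, 15.8 in mESCs, 10.6 in iPSCs, 36.1 in NTC, and 51.4 in shGldc. Notum, an enzyme that removes the lipid and a target of the pathway, was 0.0396 in MEFs, 4.68 in mESCs, 2.36 in iPSCs, 13.2 in NTC, and 29.3 in shGldc. Of these 3 genes, Wls and Notum were at least 2-fold higher in shGldc than in NTC, as were 8.97% of all genes, and Porcn was 1.43-fold higher.

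Axin2 and Lef1 apart, the listed genes that act downstream of the receptors were mostly less than 2-fold apart between shGldc and NTC, where 8.97% of all genes were higher and 7.68% lower. Of 18 cytoplasmic genes (the Dvl proteins, destruction complex, kinases, and β-catenin itself), 17 passed the filter, and none was 2-fold higher or lower in shGldc than in NTC. The median log2 ratio was 0.14, against 0.04 over all genes, and the ratios ranged from -0.58 for Ctnnbip1, an inhibitor of β-catenin, to 0.79 for Gsk3b, a kinase of the destruction complex. Ctnnb1, the β-catenin gene, was 149 in NTC and 175 in shGldc. Of 12 nuclear co-factors and repressors, all passed and none was counted as higher or lower on the log2(FPKM + 0.1) scale, with a median of -0.16. In plain FPKM, Tcf7l2, another TCF/LEF factor (1.30 in NTC and 0.621 in shGldc), and Tle2, a co-repressor (1.04 and 0.517), were just over 2-fold lower in shGldc. Of 15 genes of the noncanonical branch, 11 passed, 0 were higher, and 1 was lower, namely Celsr2, a planar polarity cadherin, at 2.36 in NTC and 1.05 in shGldc. Their median was -0.11.

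Of 9 R-spondin ligands, Lgr receptors, and ubiquitin ligases that set the amount of Frizzled at the surface, 5 passed, 1 was higher, and 2 were lower, beside 8.97% and 7.68% of all genes. Rnf43, a ligase that removes Frizzled, was 0.208 in NTC and 3.08 in shGldc, and so passed only through shGldc. Rspo1 was 2.73 and 1.04, and Lgr6, which passed only through NTC, was 1.74 and 0.711. The median of the 5 was -0.47. Of 13 other antagonists, 8 passed, with a median of 0.06. Nkd1, an intracellular inhibitor and target, was higher, at 3.76 in NTC and 10.7 in shGldc. Nkd2 (2.80 and 1.30) and Kremen2 (1.54 in NTC and listed at 0 in shGldc), a cell-surface partner of Dkk proteins, were lower, and Kremen2 passed only through NTC.

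Known targets of the canonical branch were examined as a list of 24 genes, which shares Nkd1, Nkd2, Notum, Rnf43, Lgr5, Znrf3, and Apcdd1 with the lists above. In shGldc over NTC, 19 passed, 10 were higher (52.6%), and 3 lower (15.8%), beside 8.97% and 7.68% of all genes, with a median log2 ratio of 1.06 against 0.04 over all genes. Of the 10, 3 (Msx1, Rnf43, and Cdx4) passed only through shGldc. The higher ones were Msx1, Rnf43, Cdx4, Sp5, Cdx2, Msx2, Tnfrsf19, Nkd1, Notum, and Cdx1, and the lower ones were Myc, Ascl2, and Nkd2. Sp5, a transcription factor induced by β-catenin in many tissues, was listed at 0 in MEFs and was 0.554 in mESCs, 1.28 in iPSCs, 11.6 in NTC, and 77.8 in shGldc. Cdx1, a homeobox gene of the posterior embryo, was 0.0698 in MEFs, 12.1 in mESCs, 29.8 in iPSCs, 157 in NTC, and 328 in shGldc. Both had the same order of libraries as Axin2. Msx1, a homeobox gene, was 11.6 in MEFs, 0.587 in mESCs, 1.71 in iPSCs, 0.107 in NTC, and 14.9 in shGldc, and thus stood nearly as high in MEFs as in shGldc. Lgr5, a target in intestinal stem cells, was 3.57 in MEFs and at most 0.122 in every PSC library. Myc was 19.1 in NTC and 8.30 in shGldc, and Ascl2, a transcription factor of intestinal stem cells and placenta, was 7.44 and 3.22.

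Markers of early lineages were also examined. The 9 primitive streak and mesoderm markers, which share T, Mixl1, Tbx6, Cdx1, and Cdx2 with the target list, summed to 0.336 in MEFs, 19.4 in mESCs, 39.9 in iPSCs, 177 in NTC, and 390 in shGldc, and Cdx1 made up most of the sum in the PSC libraries. In shGldc over NTC, where 8.97% of all genes were higher, 7 passed and 4 were higher (Hoxb1, Cdx2, Evx1, and Cdx1), of which Hoxb1 and Evx1 passed only through shGldc, while T itself was 4.33 in NTC and 5.08 in shGldc, and Mesp1 was listed at 0 in shGldc. Of 7 endoderm markers, 4 passed and 3 were higher, with Gata6 at 0.462 in NTC and 8.22 in shGldc, Gata4 at 2.38 and 7.84, and Dab2 at 0.928 and 2.26, of which Gata6 and Dab2 passed only through shGldc. Of 7 neural markers, 2 passed, namely Sox1 (1.43 in NTC and 1.15 in shGldc) and Nes (4.10 and 4.02), and 0 were higher or lower. The part of cells of these lineages in the differences of the Wnt genes was not tested.

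**Figure D4:**
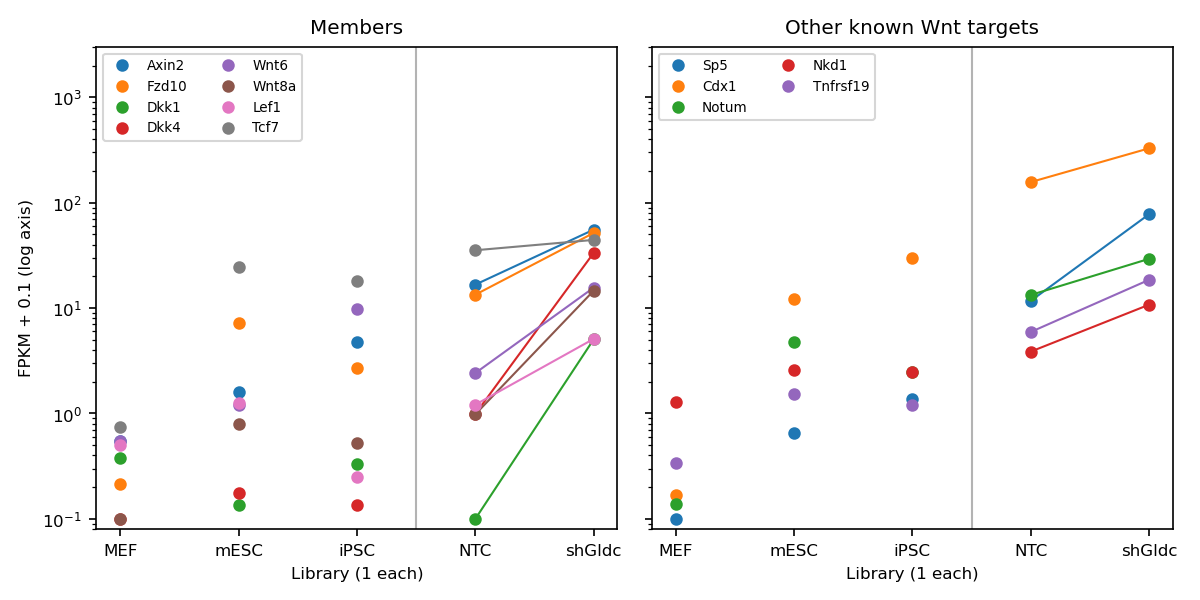
FPKM + 0.1 on a log axis for 8 of the genes (left) and 5 other known targets of the canonical branch (right) in the 5 libraries, with lines joining NTC and shGldc and a vertical line between the separately made tables. Axin2 went from 16.6 in NTC to 55.4 in shGldc and Sp5 from 11.6 to 77.8, and both were lower in mESCs and iPSCs than in NTC.

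TCF/LEF factors bind the letters CTTTGAT or CTTTGAA, and the sequence before the start is shown for Sp5, Wnt5b, and Wnt11, which hold the first form there, and for Axin2 and Wnt6 beside them. RefSeq windows of GRCm38.p6, from 250 bases before to 50 after a transcript start, were found for 29 of the 43 genes and 14 of the 24 targets. CTTTGAT, on either strand, was present in the windows of 2 of the 29 (Wnt5b and Wnt11) and of 2 of the 14 (Sp5 and Tnfrsf19), and in 4.29% of 27025 genes. CTTTGAA was present in those of 1 of the 29 (Dkk1) and of 2 of the 14 (Sp8 and T), and in 5.93% of all genes. The 125 bases before the start are printed below in the direction of the gene, with a match in capitals (ATCAAAG is CTTTGAT on the other strand). None of these stretches overlaps an exon of the GENCODE M21 annotation. Axin2 and Wnt6, chosen after their values were seen, hold neither form in the whole window, which says only that these letters are not there.
Axin2, chr11:108920224-108920348 (+): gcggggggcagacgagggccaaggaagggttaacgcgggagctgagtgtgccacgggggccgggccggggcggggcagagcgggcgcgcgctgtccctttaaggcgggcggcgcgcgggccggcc
Sp5, chr2:70474798-70474922 (+): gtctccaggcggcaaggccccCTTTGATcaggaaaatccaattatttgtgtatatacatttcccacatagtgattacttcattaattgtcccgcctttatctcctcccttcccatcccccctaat
Wnt5b, chr6:119449387-119449511 (-): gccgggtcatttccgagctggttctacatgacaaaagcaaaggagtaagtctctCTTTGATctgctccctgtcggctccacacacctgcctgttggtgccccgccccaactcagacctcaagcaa
Wnt11, chr7:98834987-98835111 (+): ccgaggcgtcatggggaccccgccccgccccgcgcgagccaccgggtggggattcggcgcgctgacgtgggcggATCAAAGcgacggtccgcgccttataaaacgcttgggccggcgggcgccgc
Wnt6, chr1:74771767-74771891 (+): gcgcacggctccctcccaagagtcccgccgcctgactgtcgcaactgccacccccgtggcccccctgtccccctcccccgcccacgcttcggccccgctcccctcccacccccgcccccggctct

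The match begins 104 bases before the RefSeq start used here in Sp5, 71 in Wnt5b, and 51 in Wnt11. The start of this Wnt5b transcript lies inside the gene as GENCODE M21 bounds it (chr6, minus strand), downstream of its 5' end at 119544347. Of the ligands with a match, Wnt5b was 5.75 in NTC and 10.6 in shGldc, and Wnt11 was 0.465 and 0.466, while Wnt6, with no match in its window, was 2.32 and 15.6.

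The NTC library was also set against untreated mESCs of the same line. Of 23 members that passed, 2 were higher in NTC (Wnt5b and Axin2) and 3 lower (Wnt7b, which passed only through mESCs, Fzd9, and Sfrp2), beside 4.99% higher and 10.3% lower of all 12048 genes. The shares of the members were 8.7% and 13.0%. With each library rescaled to the same FPKM sum, or with ratios centred on the median of all genes, 4 were higher and 2 lower, so the split between higher and lower depends on the scaling. Of the 24 targets, 17 passed, 10 were higher, and 0 lower, with a median of 1.50 against -0.06 over all genes. Of the 10, 5 (Sp5, Cdx2, T, Mixl1, and Msx2) passed only through NTC. Cdx2 was 0.274 in mESCs and 5.41 in NTC, T was 0.425 and 4.33, and Myc was 2.11 and 19.1. Of the 9 fibroblast markers that passed, 5 (Col1a1, Col1a2, Col3a1, Dcn, and Postn) were lower in NTC, all but Col1a1 passing only through mESCs. So were 2 of 3 neural markers, namely Sox1 (7.62 in mESCs and 1.43 in NTC) and Pax6 (1.15 and 0.166), which passed only through mESCs. Of 10 pluripotency markers, 1 (Dppa5a) was lower. Of 5 streak and mesoderm markers, 4 were higher, of which Cdx2, T, and Mixl1 passed only through NTC. The part of these markers in the differences was not tested.

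In shGldc over mESCs, 28 members passed, 9 were higher (Wnt3, Wnt5b, Wnt6, Wnt8a, Fzd10, Dkk1, Dkk4, Axin2, and Lef1), and 4 were lower (Wnt7b, Sfrp1, Sfrp5, and Dkk3). The shares were 32.1% and 14.3%, against 9.89% higher and 13.9% lower of all 12237 genes. Of the 9, 4 (Wnt3, Wnt8a, Dkk1, and Dkk4) passed only through shGldc, and of the 4 lower, Wnt7b and Dkk3 passed only through mESCs. Axin2 was 37.3-fold above mESCs, Wnt8a 20.9-fold, Wnt6 14.0-fold, and Fzd10 7.18-fold. In the same comparison, 6 of 7 streak and mesoderm markers and 3 of 4 endoderm markers that passed were higher. Of these, 5 streak markers (Cdx2, Hoxb1, Evx1, T, and Mixl1) and Gata6 passed only through shGldc. Lower were 2 of 3 neural, 6 of 10 fibroblast, and 3 of 10 pluripotency markers (Tdgf1, Utf1, and Dppa5a). Of these, 5 fibroblast markers (Col1a1, Col3a1, Col1a2, Dcn, and Postn) and Pax6 passed only through mESCs. The part of all these markers in the differences was not tested. This comparison and that of NTC share the mESC library, and shGldc over NTC shares libraries with both, so the 3 are not independent.

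The iPSC and mESC libraries come from the same table. Of 26 members that passed, 5 were higher in iPSCs (Wnt3, Wnt6, Wnt7b, Wnt11, and Axin2) and 5 lower (Fzd10, Sfrp1, Sfrp2, Sfrp5, and Lef1), 19.2% each, against 10.1% higher and 7.44% lower of all 12323 genes. Wnt3 and Wnt11 passed only through iPSCs and Lef1 only through mESCs, and with no filter 11 were higher and 6 lower. By family, 4 of the 8 ligands that passed were higher in iPSCs and none lower, while all 3 Sfrp antagonists that passed were lower. Axin2 was 3.15-fold higher and Lef1 7.69-fold lower, so these readouts of the canonical branch differed in direction. Of the 24 targets, 16 passed, 7 were higher in iPSCs, and 1, Ccnd1, was lower, with a median of 0.09 against 0.04 over all genes. Of the 7, 4 (Cdx2, Msx1, Msx2, and Sp5) passed only through iPSCs. Of 5 endoderm markers that passed, 3 were higher in iPSCs, namely Gata6 (0.646 in mESCs and 4.46 in iPSCs) and Sox17 (0.571 and 2.57), which passed only through iPSCs, and Gata4 (3.52 and 9.99). The 3 neural markers that passed were lower in iPSCs, with Sox1 at 7.62 in mESCs and 1.66 in iPSCs, and Nes at 6.17 and 1.38. The third, Pax6, at 1.15 and 0.292, passed only through mESCs. Lower as well were 5 of the 9 fibroblast markers that passed, of which 4 (Dcn, Col3a1, Col1a2, and Postn) passed only through mESCs, while Twist1 (2.77 and 11.8) was higher. The part of these markers' cells in the differences was not tested.

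Against MEFs, the members differed in both directions. In mESCs over MEFs, 32 passed, 12 were higher (37.5%) and 14 lower (43.8%), against 30.3% higher and 23.3% lower of 12840 genes. The higher ones were Wnt3a, Wnt5b, Wnt6, Wnt7b, Fzd5, Fzd9, Fzd10, Sfrp1, Sfrp5, Axin2, Lef1, and Tcf7, and the lower ones Wnt2, Wnt2b, Wnt4, Wnt5a, Wnt9a, Wnt11, Wnt16, Fzd1, Fzd2, Fzd4, Fzd6, Fzd8, Dkk2, and Dkk3. In iPSCs over MEFs, which shares the MEF library, 32 passed, 11 were higher (34.4%) and 13 lower (40.6%), against 31.5% higher and 21.3% lower of 13032 genes. Here the higher ones were Wnt3, Wnt3a, Wnt5b, Wnt6, Wnt7b, Fzd5, Fzd9, Fzd10, Sfrp5, Axin2, and Tcf7, and the lower ones Wnt2, Wnt2b, Wnt5a, Wnt9a, Wnt16, Fzd1, Fzd2, Fzd4, Fzd8, Sfrp2, Sfrp4, Dkk2, and Dkk3. Of the higher ones, 10 in each comparison had an FPKM under 1 in MEFs, and of the lower ones 8 had one under 1 in mESCs and 7 in iPSCs, so these passed only through the library in which they were high. The median log2 ratios of the members were -0.26 in mESCs and -0.18 in iPSCs, against 0.25 and 0.31 over all genes, but with no filter the iPSC medians changed order, to 0.27 for the members and 0.0 for all genes, and both mESC medians were 0.0. Centred on these medians, 10 members were higher and 15 lower in mESCs, beside 3264 and 3483 of all genes, and 10 higher and 14 lower in iPSCs, beside 3227 and 3408. Of the noncanonical genes, 15 passed in mESCs over MEFs, 4 were higher and 8 lower, with Gpc4, a cell-surface proteoglycan, at 131 in MEFs and 9.09 in mESCs.

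For some members a part of the signal cannot be assigned to the gene with certainty, since the strand setting of the counting is not stated. The exons of Fzd5 overlap those of Gm38058 over 17.8% of their length, those of Sfrp2 overlap Gm26771 over 16.1%, and those of Lef1 overlap Gm43352 over 13.7%. For Wnt11, Wnt7b, Wnt5a, Tcf7l1, Axin2, and Fzd6 the overlap with an annotated neighbour was 3.2% to 8.8%. Among the targets, exons of Notum overlap other genes over 29.4% of their length. Wnt6, Wnt8a, Wnt3, Fzd10, Dkk1, and Dkk4 overlap no other annotated exon.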

How the data were processed

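RNA-seq was done by the authors on 5 mouse libraries, and they deposited gene-level FPKM values in 2 tables of 24421 genes, made separately. Per the submitters' processing notes and the methods, reads were mapped with TopHat2 2.1.0 to mm10 (mm9 is also named in the labels), transcripts were assembled with StringTie 1.3.4d, SAMtools 1.7 was used, and expression was computed with Ballgown. The annotation and strand setting are not given in the sources used here. The columns were matched to samples by name, and the column sh3 as the remaining shRNA sample of its table.

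Here, log2(FPKM + 0.1) differences between single libraries were computed with Python 3.11.15, numpy 2.4.6, and pandas 2.3.3, where either of the 2 reached an FPKM of 1. A ratio of at least 2-fold was counted, and no test was run, since each condition had 1 library. Depth came from the steps between low values, searched from 0.03 to 0.06, over 5723 genes for which GENCODE lists 1 transcript. The level of 3 fragments covers counting error only. The scripts were tested on simulated data. Overlaps, shared 50-nt stretches, and exons came from GENCODE M21 of mm10, and promoters from RefSeq. The members and gene lists were chosen with earlier results of these data known. Every member that reached an FPKM of 1 in any library is named, of the other lists the members at least 2-fold apart in shGldc over NTC, some of the highest or lowest of another comparison, and Gldc. Other genes (Ctnnb1, Lgr5, Porcn, and the lineage markers) were named after their values were seen. Alternatives were a pseudocount of 1 or 0.01, an FPKM limit of 5 or none, rescaling to the same FPKM sum, centring on the median of all genes, and a 4-fold limit. Subtracting the fibroblast share of MEFs from mESCs was chosen after seeing the data. A single ratio was called moved beyond 0.60, a robust SD of log2 NTC over mESC across genes, and a count beyond 1.5 times.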

Additional observations from a re-analysis of the deposited data

How the results depend on the processing

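No paired analysis was possible because each condition was 1 library. No ratio of a member that was past 2-fold changed direction. A pseudocount or a filter cannot change the sign of a ratio. Centring shifted ratios by at most 0.31, and rescaling by a similar amount, so neither could reverse a 2-fold difference. Of 1030 single ratios under all alternatives, 67 moved, 50 of them with a pseudocount of 1. The 1030 include 167 with no filter and 90 with an FPKM of at least 5, which could not move. Of the 549 that were past 2-fold, 25 lost it, 16 of them with a pseudocount of 1. Under those filter settings, 89 and 50 of the 549 could not lose it. Ratios near 0 changed sign in 12 cases, 5 with rescaling, 5 with centring, and 2 with the fibroblast share subtracted, the largest of them 0.27 before (Wnt11 in iPSCs over MEFs, -0.03 rescaled and -0.05 centred). Medians over members also moved with the filter, for example in shGldc over NTC from 0.30 to 0.09 with none and 0.84 with an FPKM limit of 5, and in iPSCs over MEFs from -0.18 to 0.27 with none.

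The FPKM limit and the 4-fold limit change by construction which genes can be counted. With an FPKM of at least 5, the counts were 5 higher and 7 lower in mESCs over MEFs (12 and 14 before), 5 and 8 in iPSCs over MEFs (11 and 13), 2 and 3 in iPSCs over mESCs (5 and 5), and 1 lower in shGldc over mESCs (4). With a 4-fold limit they were 7 and 9 in mESCs over MEFs, 2 and 1 in iPSCs over mESCs, 6 and 0 in shGldc over NTC (9 and 2), 1 and 1 in NTC over mESCs (2 and 3), and 2 lower in shGldc over mESCs. With no filter, 11 were higher in iPSCs over mESCs, 5 were lower in shGldc over NTC, and 5 were higher and 6 lower in NTC over mESCs. A pseudocount of 1, which shrinks ratios of low values, left 1 lower in NTC over mESCs and 2 lower in shGldc over mESCs, and 8 higher in mESCs over MEFs. Rescaling or centring gave 4 higher in NTC over mESCs, and the cause was not tested. With the fibroblast share subtracted from mESCs, the log2 ratios over MEFs moved from -5.87 to -7.63 for Wnt5a and from -4.58 to -5.28 for Dkk2, and the counts were 12 and 14 against MEFs, 6 and 5 in iPSCs over mESCs, 3 and 2 in NTC over mESCs, and 10 and 4 in shGldc over mESCs.

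The depth limits the members with values near that of 3 fragments, which lay between 0.0081 and 0.103 FPKM by gene and library, and is itself uncertain by a factor of 2 or 3 in NTC and shGldc. Without replicates, the spread between cultures of 1 condition is unknown, and the same line in NTC and mESCs differed by a robust SD of 0.60 on the log2 scale.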

Other observations

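Among the 19 Wnt ligands, 8 lie next to another ligand in the genome, as 4 pairs. Wnt6 and Wnt10a lie 6.2 kb apart on chromosome 1, on the same strand. Wnt6 was 9.81 in iPSCs and 15.6 in shGldc, and Wnt10a, not past 1 in any library, was 0.910 in iPSCs and was listed at 0 in mESCs, NTC, and shGldc. The high levels of Wnt6 in these libraries were thus matched by a Wnt10a signal in iPSCs and not in shGldc. Wnt3a and Wnt9a lie 16.2 kb apart on chromosome 11, on opposite strands, and were 0 and 7.56 in MEFs but 1.55 and 2.07 in mESCs. Wnt9b and Wnt3, 24.3 kb apart on the same chromosome, also on opposite strands, were 0.155 and 2.28 in iPSCs and 0.0231 and 1.48 in shGldc. Wnt10b and Wnt1, 11.7 kb apart on chromosome 15 on opposite strands, stayed below 1 in every library, and Wnt1 was above 0 only in iPSCs, at 0.0572.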
